A study of Homo sapiens with 3 samples.

Results

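The regions described here are the m6A regions that lie beside the centromeres of 16 human autosomes (1 to 8, 10 to 12 and 16 to 20) in nuclear RNA of MDA-MB-231, an established breast cancer cell line. A region was a member when its midpoint lay within 1 Mb of the centromere gap, a 3 Mb stretch that stands in the hg19 assembly for centromeric DNA whose sequence was not resolved. The rule used position only, on both strands, and 773 of the 41836 listed regions qualified. It was set with earlier results of these data known. The study captured RNA from separated nuclei with a rabbit antibody against N6-methyladenosine (m6A) in 2 libraries, numbered 1 and 2, and with rabbit IgG in 1 control library. Cells were untreated as far as the labels say, and the labels do not say whether the m6A libraries came from separate cultures. Only 1 region list for the whole series was used, so no library has a value of its own, the depth behind each region is unknown, and no region has a replicate error.

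DNA beside human centromeres is rich in tandem satellite repeats and in recent duplications of sequence found on other chromosomes. Alpha satellite, the main satellite of the centromere itself, is a head-to-tail array of units of about 170 nt. Few genes lie there, transcription of satellites from both strands is known in cancer cells, and m6A is a methyl mark that the METTL3 and METTL14 complex places on RNA while it is being made. Reads from one copy of a repeat can align equally well to another copy. How such reads were treated, and so which copy a listed region belongs to, is not given in the sources used here and was not tested. No hg19 sequence or gene annotation was used, so regions are given by position only and carry no gene or repeat name. The likely satellite origin that goes with the choice of these regions could be examined only through their spacing.

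The members were spread very unevenly over the 32 sides of the 16 gaps. A side is the stretch toward the short or the long arm. Members were listed on 28 sides, and 12 sides with at least 20 members each held 661 of the 773. Chromosome 2 had the most, 128 members, of which 121 lay on the short-arm side. Chromosome 10 followed with 109, of which 90 lay on the long-arm side, and chromosome 4 with 97, of which 91 lay on the short-arm side. Chromosomes 20 (83 members), 18 (73), 8 (72), 1 (44), 17 (40) and 19 (34) came next. Chromosome 8 was the only one of these with more than 30 members on each side, 39 and 33. Chromosomes 6 (27 members), 7 (24), 5 (17) and 11 (16) held fewer, chromosome 3 held 5, and chromosomes 12 and 16 held 2 each. Nothing was listed on the long-arm side of chromosomes 1 and 16 or on the short-arm side of chromosomes 7 and 12.

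**Figure D1:**
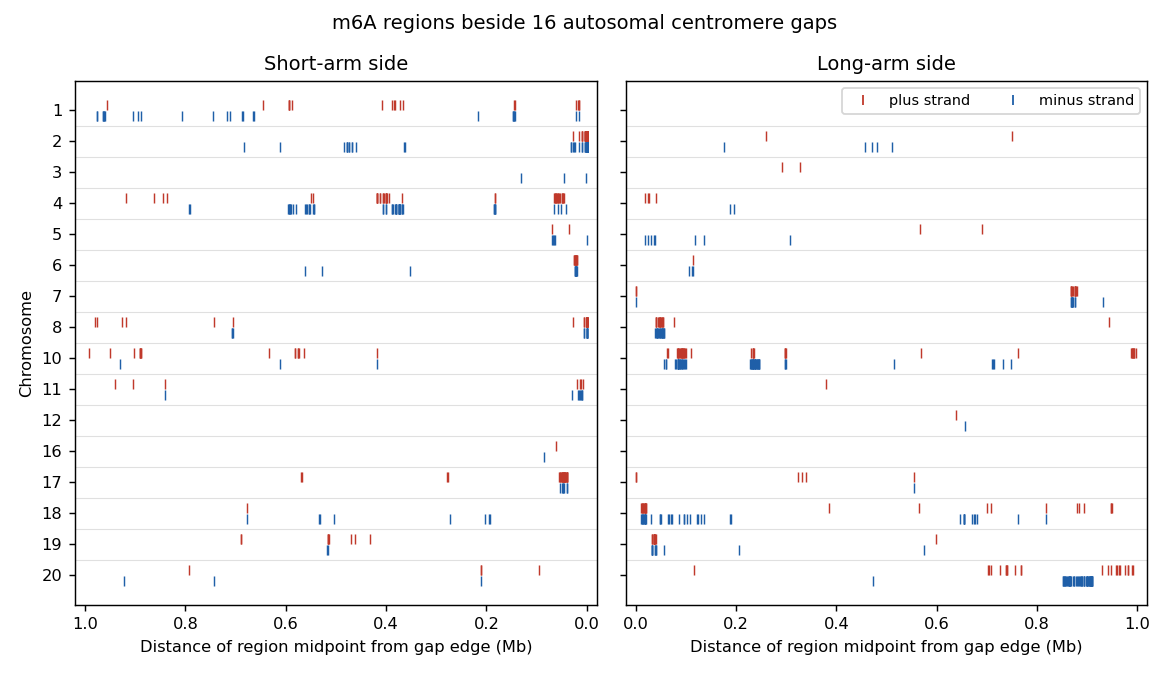
Each tick is 1 of the 773 members, plotted by the distance of its midpoint from the gap edge (Mb) on the short-arm side (left) and the long-arm side (right) of each of the 16 chromosomes, with plus-strand regions in red and minus-strand regions in blue. Ticks of both colours pile up close to the gap on chromosomes 2, 6, 8, 10, 11, 17, 18 and 19, and the dense minus-strand block of chromosome 20 lies over 0.8 Mb from its gap.

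In density the 16 chromosomes went in both directions. The members amounted to 24.2 ± 20.1 regions per Mb beside the gap and 15.4 ± 4.83 on the rest of the same chromosomes (SD, n = 16 chromosomes). The difference of 8.72 ± 22.0 regions per Mb was smaller than its spread over chromosomes and did not pass the test (exact two-sided sign-flip permutation test over chromosomes, p = 0.135, adjusted p = 0.203 over 6 comparisons). The value depended on the distance and on a few dense places: it was 17.6 regions per Mb within 0.5 Mb and 3.66 within 2 Mb, and it turned to -0.47 without the 6 largest clusters and to -3.47 without 7 bins of 1 Mb that earlier results had named (none passed the test). Chromosome 2 had 64.0 regions per Mb beside the gap against 11.96 elsewhere, chromosome 10 had 54.5 against 12.7, and chromosome 4 had 48.5 against 10.4. Chromosome 3 went the other way, with 2.5 against 16.2, as did chromosome 12, with 1 against 15.49. The density was higher beside the gap on 7 chromosomes and lower on 9. Each side was counted as 1 Mb, and any unresolved sequence inside the 1 Mb was not subtracted. The counts include the 114 members inside the rounded gap limits, for which no length was added. These raise the density beside the gap on the chromosomes that hold them, among them chromosomes 2 and 8.

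The members crowded against the gap. Within 0.1 Mb of it lay 373 members (48.3%), spread over 19 sides, whereas each later bin of 0.1 Mb held between 25 and 72. The bins from 0.8 to 0.9 Mb (72 members) and from 0.9 to 1.0 Mb (63) were the next fullest, and the large minus-strand block of chromosome 20 begins 0.853 Mb from its gap. Of the 373, 114 fell inside the gap limits as rounded to 0.1 Mb, which are less exact than the assembled edges. The first bin thus takes in more sequence than the later ones. The members nearest the limit of 1 Mb lay on the plus strand of chromosome 10 at 43297614 to 43297647 (34 nt, midpoint 0.998 Mb from the gap) and at 43292934 to 43292974 (41 nt). The nearest regions left out were on the plus strand of chromosome 20 at 25389787 to 25389893 (107 nt, 1.010 Mb) and of chromosome 10 at 43310253 to 43310295 (43 nt, 1.010 Mb).

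**Figure D2:**
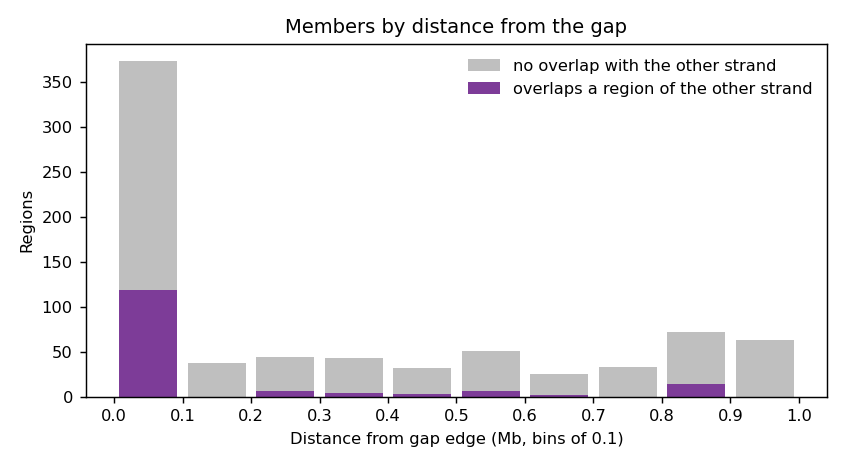
Bars give the number of members in each bin of 0.1 Mb from the gap edge, and the purple part gives those that overlap a region of the other strand. The first bin holds 373 members, 119 of them overlapping, and no later bin holds more than 14 overlapping members.

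The members had a median width of 45 nt, equal to that of all regions, with quartiles of 34 and 60 nt against 33 and 54 nt, and together they covered 44.4 kb. Median widths per chromosome averaged 43.2 ± 5.57 nt beside the gap and 44.9 ± 0.77 nt elsewhere (SD, n = 14 chromosomes with at least 5 members), a difference that did not pass the test (exact sign-flip permutation p = 0.308, adjusted p = 0.354). Regions over 100 nt numbered 90 (11.6%), against 10.3% of the list. The most frequent width of the list, 49 nt, was held by 47 members (6.08%), against 8.79% of the list. Per chromosome its share averaged 6.18 ± 4.86% beside the gap and 8.84 ± 0.97% elsewhere and was lower beside the gap on 12 of 14 chromosomes, which did not pass (exact sign-flip permutation p = 0.0618, adjusted p = 0.124). That comparison turned on chromosome 3, where 1 of only 5 members was 49 nt wide. Without it the difference was -3.72 percentage points (exact sign-flip permutation test, adjusted p = 0.00195). Chromosome 3 was left out after the values had been seen, and it had the largest difference in the other direction. Leaving it out favours passing, so this p-value is not support for a lower share.

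The widest members lay in the dense clusters described below. The plus strand of chromosome 4 held a region of 601 nt from 49294042 to 49294642, and the minus strand of chromosome 2 a region of 320 nt from 92319154 to 92319473. The plus strand of chromosome 6 held a region of 298 nt from 58776644 to 58776941 and a region of 279 nt from 58778187 to 58778465. All 4 overlapped a region of the other strand. The minus strand of chromosome 20 held a region of 283 nt from 30282868 to 30283150, which overlapped none.

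The balance of the strands did not differ detectably from the rest of the chromosomes. The minus strand held 410 members (53.0%, against 57.4% of the list) and the plus strand 363. Per chromosome the minus share averaged 52.8 ± 14.1% beside the gap and 57.3 ± 6.88% elsewhere (SD, n = 14 chromosomes; exact sign-flip permutation p = 0.354, adjusted p = 0.354). Chromosome 17 had 20% minus beside the gap against 58.3% elsewhere and chromosome 8 had 40.3% against 76.5%, whereas chromosome 5 had 76.5% against 52.4%. Among the 373 members within 0.1 Mb of the gap 46.1% were minus, and among the 400 farther out 59.5% were.

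Pooled over the 16 chromosomes, strands were more mixed among the members than in the rest of the list. This did not hold on chromosomes 5 and 20. Outside 7 bins of 1 Mb named by earlier results the difference did not pass, as given below. Regions beside the centromeres of chromosomes outside the rule were not compared separately. A member and its next neighbour, on either strand and 100 nt to 10 kb away, shared a strand in 369 of 519 pairs (71.1%), against 95.4% over the whole list and 95.9% of the 25851 pairs that contain no member. Regions were taken in order of start. After 2 overlapping regions the next one was paired with the later of them, even where that lay inside the other. The same-strand share is therefore not independent of the overlaps described below. Per chromosome the share averaged 69.2 ± 18.2% beside the gap and 96.1 ± 0.73% elsewhere, a difference of -26.9 ± 18.3 percentage points (SD, n = 13 chromosomes with at least 5 such pairs). The share was lower beside the gap on 11 of the 13 (exact sign-flip permutation p = 0.000977, adjusted p = 0.00293). Chromosome 7 had the lowest share, 37.5% of 16 pairs, followed by chromosomes 6 (53.3% of 15), 2 (55.1% of 78), 19 (57.1% of 21) and 8 (59.6% of 52). On chromosome 20 the share was 98.5% of 66 pairs and on chromosome 5 it was 100% of 7, both above the rest of their chromosome. Mixing was most marked among close neighbours. Members 300 to 1000 nt apart shared a strand in 61.6% of 172 pairs, where other pairs did in 96.9% of 6418, and members 3 to 10 kb apart in 84.0% of 75, where other pairs did in 94.2% of 8268.

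Many members also had a region on the opposite strand at the same place. Overlap of at least 1 nt with a region of the other strand was found for 154 members (19.9%), against 1.14% of the whole list. Per chromosome the share averaged 19.8 ± 15.7% beside the gap and 0.72 ± 0.59% elsewhere, a difference of 19.05 ± 15.6 percentage points (SD, n = 14 chromosomes). It was higher beside the gap on 11 of 14 chromosomes (exact sign-flip permutation p = 0.000977, adjusted p = 0.00293). Most of the overlapping pairs lay in places already named from this list for their overlaps, so this p-value is not independent support. Chromosomes 2 (43.0% of 128 members), 7 (41.7% of 24), 6 (40.7% of 27) and 11 (37.5% of 16) had the highest shares. Chromosomes 1, 3 and 20, with 44, 5 and 83 members, had no overlapping member. Of the 1915 regions 1 to 5 Mb from the same gaps, 0.52% overlapped the other strand. Against that neighbourhood the difference was 19.3 percentage points (exact sign-flip permutation p = 0.000977, adjusted p = 0.00439).

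**Figure D3:**
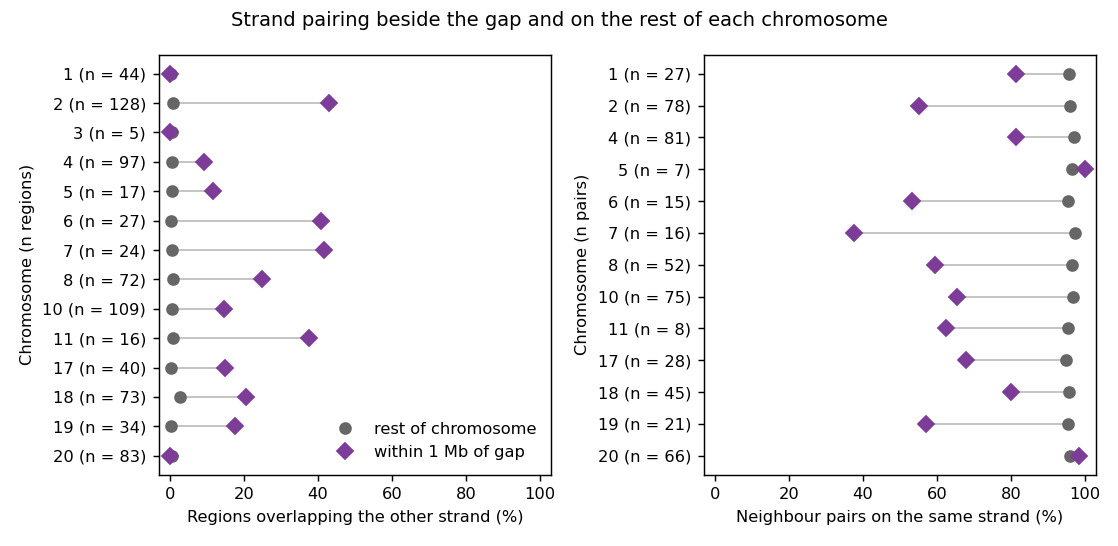
For each chromosome the left panel plots the percentage of regions that overlap a region of the other strand, and the right panel the percentage of neighbour pairs up to 10 kb apart that share a strand. Diamonds are members and circles are the rest of the same chromosome. Diamonds lie to the right of the circles on 11 of 14 chromosomes in the left panel and to the left of them on 11 of 13 in the right panel.

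Earlier results on the same list had already named 7 bins of 1 Mb beside these gaps for their overlaps. The overlap test thus rests largely on a known pattern, and the same-strand test at least in part. Those bins, on chromosomes 2, 4, 6, 7, 8, 10 and 18, held 390 members and 64 of the 79 overlapping pairs. Outside them 30 of 383 members overlapped the other strand (7.83%). There the overlap share still exceeded the rest of the chromosome by 8.41 percentage points, but on 6 of 12 chromosomes only and without passing (exact sign-flip permutation p = 0.0313, adjusted p = 0.134). The same-strand share was then lower by 10.9 percentage points on average, which did not pass either (difference of -10.9, exact sign-flip permutation p = 0.0654, adjusted p = 0.134). It was lower on 6 of 11 chromosomes and higher on 5. The 15 pairs outside the named bins lay on chromosomes 8, 11, 17 and 19 with 3 each, on chromosome 18 with 2 and on chromosome 5 with 1.

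The 79 overlapping pairs made up 32.5% of the 243 such pairs in the list, and 61 of them lay within 0.1 Mb of the gap. The overlap had a median of 37 nt and ran from 1 to 171 nt, and the midpoints of the pair lay a median of 15.5 nt apart. In 40 pairs (50.6%) 1 region lay wholly inside the other, with the minus-strand region inside in 30 of them and the plus-strand region inside in 10. The longest overlap, of 171 nt, joined the 320 nt minus-strand region of chromosome 2 to a plus-strand region of 183 nt from 92319303 to 92319485. On chromosome 10 a plus-strand region from 42398616 to 42398775 (160 nt) and a minus-strand region from 42398615 to 42398757 (143 nt) began within 1 nt of each other and overlapped by 142 nt. On chromosome 6 the plus-strand region of 279 nt met a minus-strand region from 58778182 to 58778339 (158 nt) over 153 nt, and the region of 298 nt held a whole minus-strand region from 58776645 to 58776758 (114 nt). On chromosome 2 a minus-strand region from 92312973 to 92313065 (93 nt) lay inside a plus-strand region from 92312950 to 92313072 (123 nt). The median width was 51 nt for overlapping members and 44 nt for the others.

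Joining members at most 10 kb apart on either strand gave 155 clusters, of which 76 were single regions. The 15 clusters with at least 10 members held 468 members (60.5%), and 10 of them came within 0.1 Mb of the gap. Of these 15, 12 had between 20 and 80% of their regions on the minus strand and 13 contained an overlap. Among the 660 clusters of that size in the rest of the list, 73 (11.1%) were mixed to that degree and 30 (4.55%) contained an overlap.

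The largest cluster lay on the short-arm side of chromosome 2 from 92269078 to 92325923, at the very edge of the gap. It held 108 members in 56.8 kb, 56 on the plus and 52 on the minus strand, and 28 overlapping pairs. Neighbours in it shared a strand in 34 of 69 pairs (49.3%). Its first 20 kb held 8 regions and its last 20 kb, next to the gap, 80. Together they covered 11.8% of it. This cluster supplied 22 of the 90 members over 100 nt.

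The next largest was of the opposite kind. On the long-arm side of chromosome 20, 51 regions between 30252487 and 30310454 were all on the minus strand, none overlapped, and all 50 neighbour pairs shared a strand. It lay 0.853 Mb from the gap, had a median width of 49 nt and covered 6.44% of 57.97 kb. It was the only one of the 15 large clusters of members with all regions on 1 strand.

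The cluster of 40 members on the short-arm side of chromosome 4, from 49280873 to 49332824, mixed strands in another way. It had 16 plus and 24 minus regions, yet 32 of 36 neighbour pairs shared a strand (88.9%), and the leading strand changed once along it. Joined at 3 kb, its members fell into 9 groups whose starts were 5.40 to 7.47 kb apart. The first 5 groups, from 49280873 to 49305972, held 15 plus and 4 minus regions. The last 4 groups, from 49312325 to 49332824, held 20 minus regions and 1 plus region. A period of 6.28 kb fitted the plus-strand regions best and 6.39 kb the minus-strand regions, with mean cosines of 0.60 on both strands. The mean cosine is the average of cos(2π × distance / period) over all pairs of midpoints, and it is 1 when every distance is a whole multiple of the period and near 0 when distances are spread evenly. In the same scan from 3 to 10 kb no other of the 6 largest clusters exceeded 0.15. This cluster was looked at in this way after its map had been seen, and the scan is a description.

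The other 3 of the 6 largest clusters came within 0.1 Mb of the gap and used both strands. On the long-arm side of chromosome 10, 35 members from 42378597 to 42409383 were 18 plus and 17 minus, and 13 of 27 neighbour pairs shared a strand (48.1%). On the long-arm side of chromosome 8, 31 members from 46839172 to 46856215 were 14 plus and 17 minus with 6 overlapping pairs, and 10 of 24 neighbour pairs shared a strand (41.7%). On the short-arm side of chromosome 17, 29 members from 22244817 to 22261573 were 22 plus and 7 minus with 2 overlapping pairs. The tightest large cluster was smaller: on the short-arm side of chromosome 6, 20 members spanned 6.495 kb from 58773639 to 58780133 and filled 23.5% of it. Their median width was 60 nt, and 6 pairs overlapped across the strands.

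**Figure D4:**
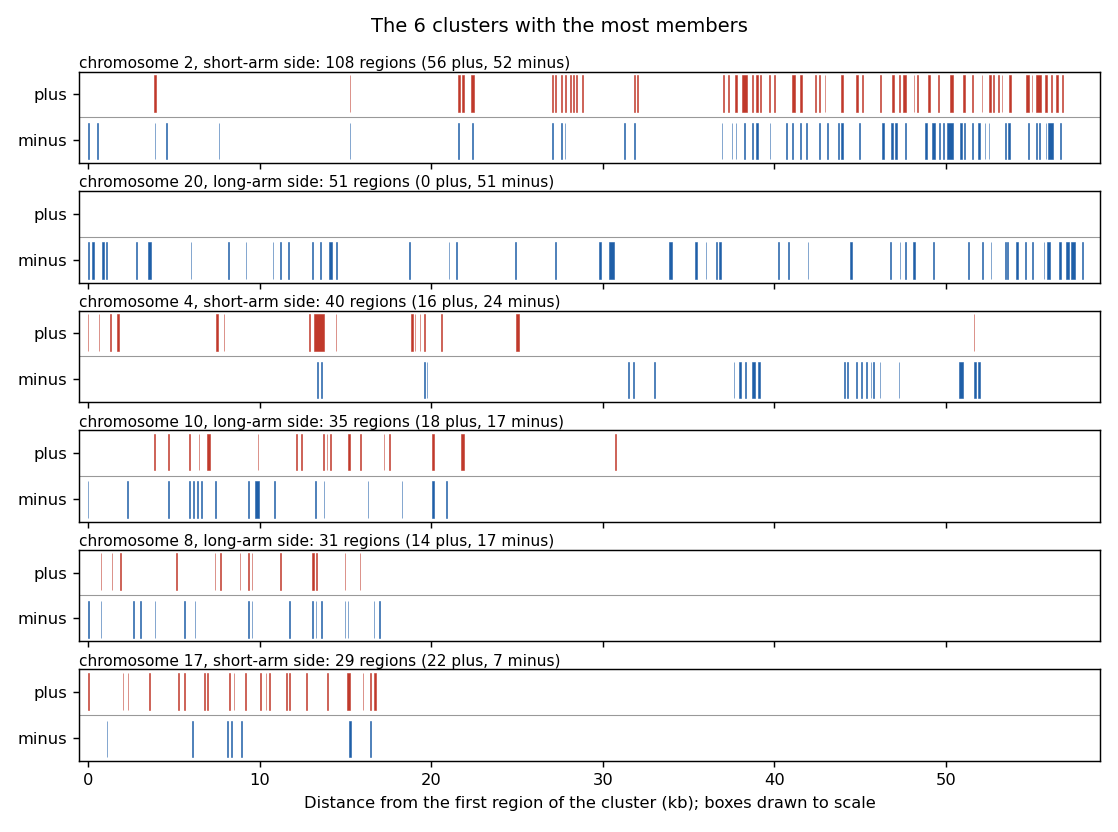
Each panel maps 1 of the 6 clusters with the most members, with boxes to scale at their distance (kb) from the first region, plus-strand regions in red above the line and minus-strand regions in blue below it. The chromosome 20 panel has 51 boxes on the minus strand only, the chromosome 4 panel changes from mostly plus to mostly minus in evenly spaced groups, and the other 4 panels have both strands side by side.

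In some clusters the distances between same-strand members tended to fall near multiples of the length of an alpha satellite unit. Within each cluster and strand with at least 10 regions and at least 20 distances of up to 3 kb between midpoints, the mean cosine was computed for a period of 170 nt and for each of the 301 whole periods from 100 to 400 nt. Of 18 such sets of members, 5 reached 0.3 at 170 nt (27.8%), and of 290 sets in the rest of the list 4 did (1.38%). The medians were 0.09 and -0.03. The highest value was that of the plus strand on the long-arm side of chromosome 19, 0.61 over 11 regions. In the chromosome 8 long-arm cluster the minus strand had 0.55 over 17 regions and the plus strand 0.50 over 14. The plus strand on the short-arm side of chromosome 8 had 0.46 over 17 regions, and the plus strand of the chromosome 17 cluster had 0.42 over 22. In 4 of the 5 sets the best of the 301 periods was 169 or 170 nt. On the short-arm side of chromosome 8 it was 117 nt (0.55), and 170 nt ranked 3. These values describe the list and have no test.

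The distances in these 5 sets, which were picked by the cosine and so give no separate support, were as follows. If distances were spread evenly, 24.1% would lie within 20 nt of a whole multiple of 170 nt, and over all 18 sets of members the median share was 24.3%, against 22.4% over the sets in the rest of the list. On the minus strand of the chromosome 8 long-arm cluster 24 of 32 distances did (75%), on chromosome 17 41 of 66 (62.1%), and on chromosome 19 from 27732131 to 27739499 20 of 36 (55.6%). On the short-arm side of chromosome 8 from 43822427 to 43837396 the share was 43.2% of 44 distances, and on the plus strand of its long-arm cluster 42.3% of 26. Successive regions on the minus strand of that cluster included steps of 176.5, 180.5, 336 and 346.5 nt, each close to 1 or 2 units. On chromosome 19 steps of 168, 336 and 843.5 nt lay near 1, 2 and 5 units. On chromosome 17 steps of 162.5, 167 and 341.5 nt lay near 1 and 2 units. Other steps in these sets lay between multiples or were many units long. Same-strand regions in this list are at least 101 nt apart edge to edge, and midpoint steps are longer by about a region width. Steps near 1 unit are thus partly set by that floor, and the even share of 24.1% takes no account of it. Across the strands of the chromosome 8 long-arm cluster, minus-strand midpoints followed plus-strand midpoints by 155 nt on average when distances were taken modulo 170 nt, with a mean vector length of 0.57 over 69 distances (1 would mean a fixed shift and 0 none). The mean shift was 137 nt on the short-arm side of chromosome 8 (vector length 0.46), 118 nt on chromosome 17 (0.28) and 49.1 nt on chromosome 19 (0.30). Shifts run around a unit of 170 nt, so those near 0 and near 170 nt both mean nearly matching positions. Whether the shift differs between clusters was not tested.

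**Figure D5:**
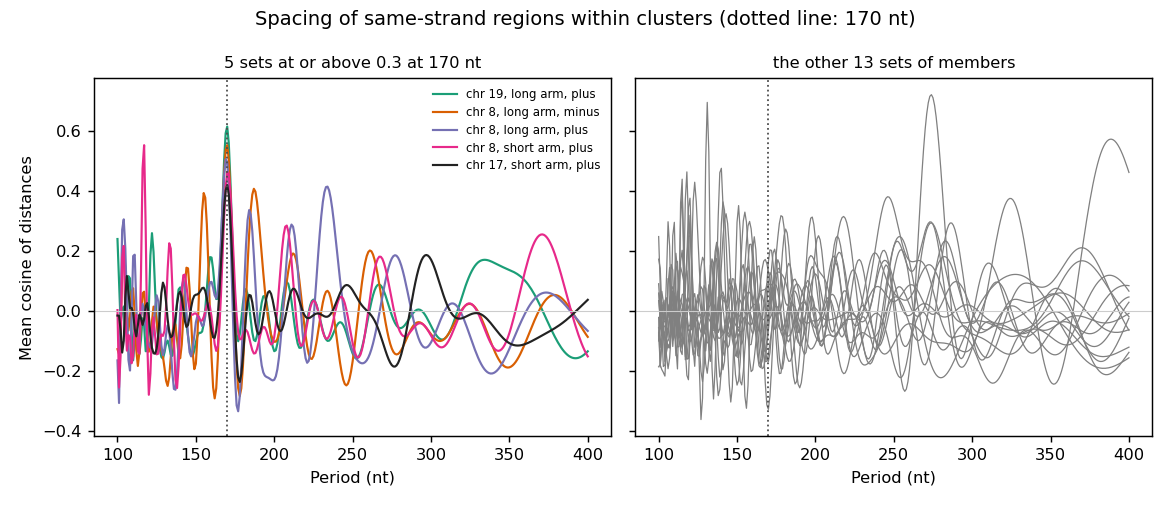
Lines give the mean cosine of same-strand distances up to 3 kb for each period from 100 to 400 nt, on the left for the 5 sets of members at or above 0.3 at 170 nt and on the right for the other 13 sets. The 5 lines on the left share a peak at the dotted line of 170 nt, and the lines on the right have their peaks at scattered periods.

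Of the 6 largest clusters, those on chromosomes 2, 4, 10 and 20 stayed under 0.3 at 170 nt on each strand that could be measured. The plus and minus strands of the chromosome 2 cluster had mean cosines of 0.02 and 0.09 over 237 and 195 distances, and 23.2% and 34.9% of the distances lay near a multiple. The minus-strand run of chromosome 20 had -0.03 over 132 distances, and the chromosome 10 cluster from 42378597 had 0.09 on each strand. The plus and minus strands of the chromosome 18 cluster from 18510937 to 18520034 had -0.14 and -0.33, and its plus strand fitted a period of 274 nt best (0.72, 12 regions). The chromosome 7 cluster, with 20 members from 61967569 to 61979357, lay 0.868 Mb from the gap and had a mean cosine of -0.01 on the plus strand and 5 overlapping pairs. Mixed strands and overlaps were found in clusters where a strand reached 0.3 at 170 nt, as on chromosomes 8, 17 and 19. They were also found where neither strand did, as on chromosomes 2 and 18 and in the chromosome 10 cluster from 42378597. The plus strand on chromosomes 6 and 7 did not reach it either, and their 9 minus-strand regions each were too few to measure. In this list same-strand regions are never less than 101 nt apart edge to edge. Midpoint spacing shorter than that plus about a region width could therefore not be seen between neighbours.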

How the data were processed

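Nuclear RNA of MDA-MB-231 was captured with an m6A antibody (2 libraries) or IgG (1 library). The submitters' processing notes name Bowtie2 and the build hg19. For the Bowtie2 version, the peak caller and its thresholds, the use of the IgG library and the pooling of libraries, the entry is: not given in the sources used here. Each line of the deposited list gives start, end, name, strand and a score column that is 1 for every region, so the authors' positions are the only other measurements. Depth and its precision are unknown.

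Regions were compared between the 1 Mb beside each gap and the rest of the same chromosome, for chromosomes with at least 5 members (all 16 for density), by an exact two-sided sign-flip permutation test over chromosomes. The 6 p-values were adjusted with the Benjamini-Hochberg method. They hold for this list alone, not for a repeated experiment. For 16, 14 and 13 chromosomes the smallest possible p is 3.05e-05, 0.000122 and 0.000244. Lengths were 1 Mb a side, and elsewhere the span from first to last region without the gap and its sides. Members inside the rounded gap limits were counted without added length. Positions count from 1 with the end included. Clusters joined members at most 10 kb apart. Named were the 6 largest clusters, the 5 widest members, overlapping pairs and the regions nearest the 1 Mb limit; the chromosome 6, 7, 18 and 19 clusters, the short-arm one of chromosome 8, and both spacing scans were chosen after values were seen. The members and the tests were chosen with earlier results of these data known. Sequence features were planned but not analysed here, since no hg19 sequence was used. Functions were tested on simulated data. Python 3.11.15, numpy 2.4.6 and pandas 2.3.3 were used.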

Additional observations from a re-analysis of the deposited data

How the results depend on the processing

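Limits of 0.5 and 2 Mb, a comparison with regions 1 to 5 Mb away, other minimum numbers of members and leaving out chromosome 2 left the same-strand share and the overlap share on their side of the threshold. The alternatives that leave out named bins, large clusters or each chromosome in turn were chosen after seeing the data. Without the 7 named bins the differences were 8.41 percentage points for overlap and -10.9 for the same-strand share. Neither share passed any longer (exact sign-flip permutation test, adjusted p = 0.134 for each). Density reversed to -3.47 regions per Mb without these bins and to -0.47 regions per Mb without the 6 largest clusters. Neither density passed. The share of 49 nt regions passed with at least 10 members per chromosome (-3.72 percentage points, exact sign-flip permutation test, adjusted p = 0.00293) or at least 1 (-3.43, adjusted p = 0.0333). The minimum of 10 removes only chromosome 3, so it repeats the comparison without that chromosome. The minimum of 1 adds chromosomes 12 and 16, with 2 members each and none of 49 nt. The share of 49 nt regions did not pass at 0.5 Mb (-2.01 percentage points) or at 2 Mb (-2.13). Regions 1 to 5 Mb away (-2.33), merging of overlapping regions (-1.74) and leaving out the named bins (-2.01) did not make it pass either. Leaving out each chromosome gave 5.83 to 10.3 regions per Mb, -6.75 to -1.95 percentage points for the minus share, -2.38 to -0.77 nt for width, -3.72 to -2.22 for 49 nt regions, -29.4 to -24.1 for the same-strand share and 17.3 to 20.6 for overlap. Density was 17.6 regions per Mb at 0.5 Mb and 3.66 at 2 Mb. Clusters numbered 347 at 1 kb and 96 at 50 kb. Of 18 sets of members, 5 reached a mean cosine of 0.3 with upstream ends, with distances up to 6 kb and with a unit 1 nt longer, and 2 of 8 did for distances up to 1.5 kb. In the rest of the list 6 of 292, 8 of 477, 2 of 290 and 3 of 127 did. A stricter score and leaving out a library could not be run. No paired analysis was possible because the list has no value for any library.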
